A study of Mus musculus with 24 samples.

Results

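The lungs of a pair of inbred mouse strains, C3H/HeMs and C57BL/6J, were compared with 8 of the 24 arrays of the series, 4 per strain, chosen by the strain and tissue on their labels. Each strain gave lung RNA from mice without irradiation and from mice killed 1 h, 12 h and 72 h after a single gamma-ray dose of 10 Gy to the thorax. All mice were females of 12 to 13 weeks, and every array held RNA pooled from 3 of them, hybridised against purchased RNA of 10 organs as the common reference. With 1 pool per strain and time, an array of C3H/HeMs was paired with the C57BL/6J array of the same time, and the 4 pairs were the only replication. The p-values therefore measure the spread between pairs of pools, not between single mice, and the labels do not say whether the pools were handled apart. The series as a whole asks for radiation responses that strains share, and this comparison asks which genes differed between a pair of those strains.

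Inbred strains carry fixed sets of alleles, so a gene that is duplicated, deleted or weakly transcribed in one strain is so in every mouse of it. C57BL/6 mice are known to develop lung fibrosis after thoracic irradiation, whereas C3H substrains are known for pneumonitis. Lung itself is a mixture of gas-exchanging and airway epithelium, dense capillary endothelium, macrophages, lymphocytes and connective tissue, and dissected lung can carry heart muscle, thymus or oesophagus with it.

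Levels are given as log2 ratios of lung over reference after centring each array on its median, always in the order control, 1 h, 12 h and 72 h. A strain difference is C3H/HeMs minus C57BL/6J on that scale, and n is 4 pairs wherever no other number stands. Its standard error (SE) comes from the limma fit, which moderates the spread over the 4 pairs by that of all features. The tissue label was checked on its markers. Of 12 measured genes of alveolar and club epithelium, 11 lay above the reference on all 8 arrays, as did 18 of 21 endothelial genes. The C3H/HeMs arrays of 12 h and 72 h stood apart from the rest. They held 183 and 115 ratios of exactly 0, against 1 to 23 on the other 6 arrays. Over all features they correlated at 0.94 with each other but at only 0.825 to 0.887 with the other 6, which correlated at 0.904 to 0.959 among themselves. The 22 genes named by rule are therefore also given over the control and 1 h pairs alone, the early difference. Naming required this difference to be at least 2-fold in the called direction, and these pairs are part of the call. For the named genes it is therefore no independent check.

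Of 8750 features, 64 differed between the strains at an adjusted p under 0.05 (0.731% of those tested), 39 of them higher in C3H/HeMs (0.446%) and 25 lower (0.286%). A single gene symbol was available for 44 of them, 32 higher and 12 lower. The median size of the 64 differences was 1.29, 51 were at least 2-fold and 8 at least 4-fold. All 64 had the same sign in the 4 pairs, and for 63 no array of one strain reached the range of the other, Chia1 being the exception. The call itself favours both traits, since it weighs a difference against its spread over the same pairs, so they are no further evidence. Over all features, the 4 C3H/HeMs arrays lay above all 4 C57BL/6J arrays for 9.38% and below them for 7.21%. In a fit with separate differences for the early and late pairs, 21 features (0.24%) were called over control and 1 h and 1467 (16.8%) over 12 h and 72 h. Of the 64, 15 were also called over control and 1 h. Over these early pairs the differences of all 64 in the called direction ran from 0.75 to 2.85 with a median of 1.23. Over 12 h and 72 h the same 64 ran from 0.76 to 2.65 with a median of 1.31. The count rests on having all 4 pairs: without the control, 1 h, 12 h or 72 h pair limma called 10, 17, 12 or 3 features, and without time as a block it called 307, including 61 of the 64. A fit of the 4 control and 1 h arrays alone called 0, with 1182 at an unadjusted p under 0.05, against 2061 in the fit of 8 arrays. Counts of called genes in the gene lists below stand beside the 0.731% of all features that were called.

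**Figure D1:**
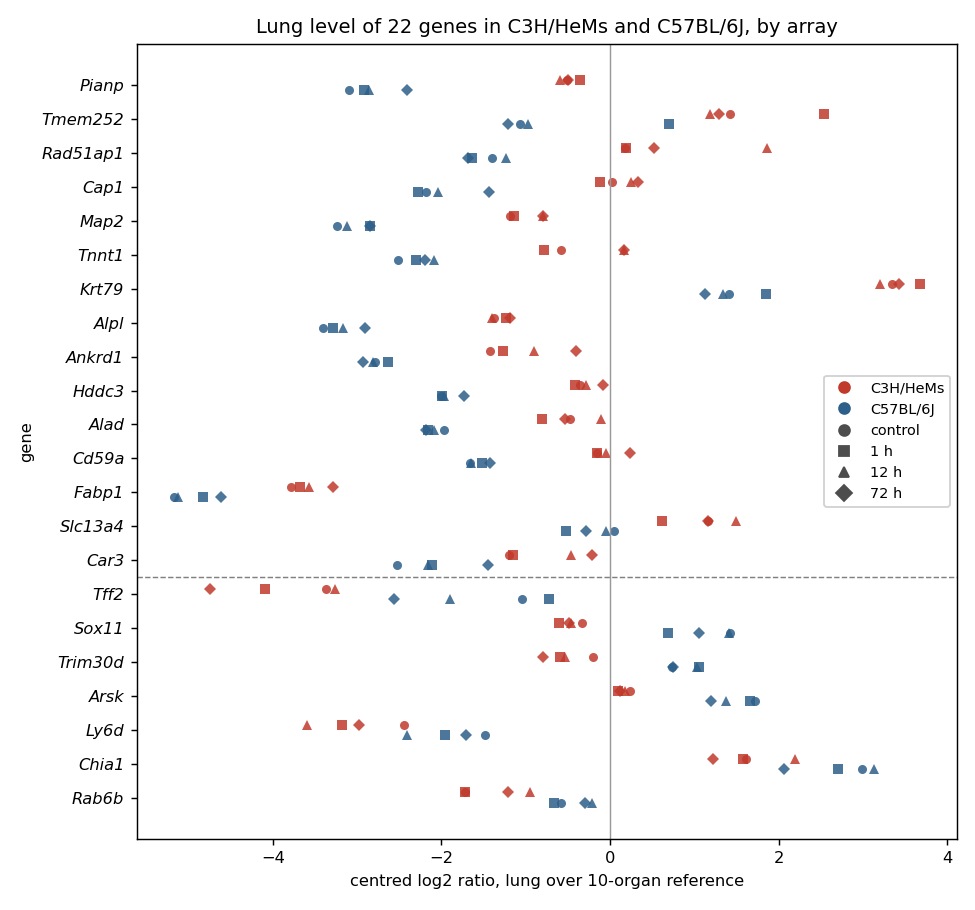
Centred log2 ratio of lung over the reference for the 22 named genes, 1 point per array, C3H/HeMs in red and C57BL/6J in blue, with the marker shape giving the time. Above the dashed line are the 15 genes that were higher in C3H/HeMs and below it the 7 that were lower; the colours overlap only for Chia1.

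**Figure D2:**
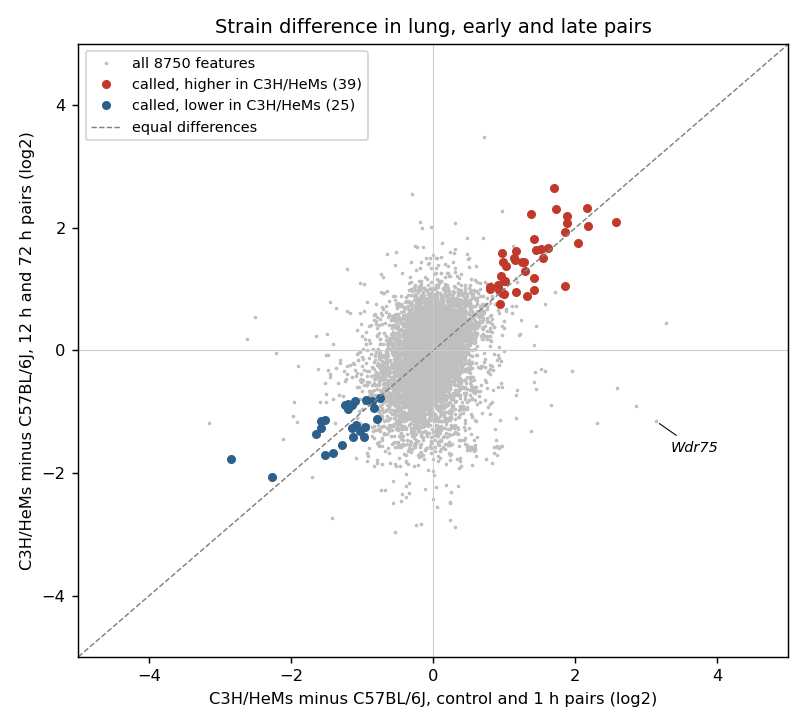
Strain difference over the control and 1 h pairs against that over the 12 h and 72 h pairs for 8750 features (grey), with the 39 higher and 25 lower called features in colour. Called features lie near the diagonal, which the call itself favours, since it weighs a difference against its spread over the pairs. The grey cloud is taller than wide, with a median size of 0.35 late against 0.18 early, and Wdr75 (3.14 early, -1.16 late) lies far off the diagonal.

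Pianp, Cap1 and Hddc3 were far lower in C57BL/6J lung than in C3H/HeMs lung on every array, and the skin arrays of the strains lay apart in the same direction. Pianp encodes a membrane protein that binds the paired immunoglobulin-like receptor PILR-alpha. Its ratios were -0.51, -0.36, -0.59 and -0.50 in C3H/HeMs and -3.10, -2.92, -2.86 and -2.41 in C57BL/6J. The gap of 2.33 ± 0.15, a 5.03-fold difference (adjusted p = 0.00521), was 2.57 over control and 1 h. Cap1, an actin monomer binding protein that drives filament turnover, lay near the reference in C3H/HeMs, at 0.02, -0.12, 0.25 and 0.33. In C57BL/6J it lay at -2.18, -2.28, -2.04 and -1.44, which made a difference of 2.11 ± 0.13 (adjusted p = 0.00521, 2.18 over control and 1 h). Hddc3, a hydrolase related to the bacterial enzymes that break down the alarmone ppGpp, stood at -0.36, -0.41, -0.28 and -0.08 against -2.01, -1.99, -1.97 and -1.73. Both strains were tight around their means, and the difference was 1.64 ± 0.10 (adjusted p = 0.00521) and 1.62 over control and 1 h. In skin, from other pools of the same strains and with the opposite dye, the differences were 1.88 ± 0.20 for Pianp, 2.28 ± 0.21 for Cap1 and 1.43 ± 0.25 for Hddc3. Arsk, a lysosomal sulfatase, went the other way: 0.24, 0.09, 0.18 and 0.12 in C3H/HeMs and 1.72, 1.66, 1.38 and 1.20 in C57BL/6J, a difference of -1.34 ± 0.13 (adjusted p = 0.018, -1.53 early). Its 2 probes gave -1.35 and -1.33, and skin gave -1.20 ± 0.24.

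In skin the strain ranges of Pianp, Cap1, Hddc3 and Arsk lay apart in the direction of lung, but only Cap1 passed there (limma adjusted p = 0.0243). The adjusted p in skin was 0.0534 for Pianp, 0.2 for Hddc3 and 0.238 for Arsk. The DNA before the start sites of Cap1, Hddc3 and Arsk is shown.
For 8 named genes the strain ranges lay apart in lung and in skin in the same direction. Of these, 5 had a single start in the promoter table, and the 3 with the largest smaller difference of both tissues are printed. The sequences are the 250 bases before the start from RefSeq on GRCm38.p6, an assembly made from C57BL/6J, one of the strains compared, so they show the allele of the low strain for Cap1 and Hddc3 and of the high strain for Arsk. Capitals mark the CCAAT box, searched as CCAAT on both strands and found in 33.8% of 32851 promoters of the same length.
Cap1, chr4:122886077-122886326, minus strand: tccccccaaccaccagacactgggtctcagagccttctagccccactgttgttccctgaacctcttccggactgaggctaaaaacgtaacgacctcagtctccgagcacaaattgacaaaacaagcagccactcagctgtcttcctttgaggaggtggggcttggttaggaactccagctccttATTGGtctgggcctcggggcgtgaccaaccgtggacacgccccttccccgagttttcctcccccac
Hddc3, chr7:80342887-80343136, plus strand: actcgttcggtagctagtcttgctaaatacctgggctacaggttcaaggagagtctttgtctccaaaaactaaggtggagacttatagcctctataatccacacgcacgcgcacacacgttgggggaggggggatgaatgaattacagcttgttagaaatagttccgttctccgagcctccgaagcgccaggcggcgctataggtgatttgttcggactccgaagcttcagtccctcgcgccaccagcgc
Arsk, chr13:76098661-76098910, minus strand: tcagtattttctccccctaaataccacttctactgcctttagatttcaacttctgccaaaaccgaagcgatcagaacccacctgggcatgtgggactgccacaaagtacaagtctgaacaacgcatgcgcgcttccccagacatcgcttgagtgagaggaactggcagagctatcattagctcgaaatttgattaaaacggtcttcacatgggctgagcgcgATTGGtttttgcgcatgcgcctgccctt
The GC box (GGGCGG, in 32.7% of promoters) and the TATA box (TATAAA, in 12.4%) were not found in these windows on either strand. The windows held 9, 17 and 12 CpG sites, against a median of 6 over all promoters. A match of letters is a description and not a binding site, and the arrays did not measure the C3H/HeMs sequence.

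Alad, Hebp1, Cd59a and Procr were also higher in C3H/HeMs. Alad, the enzyme of the second step of heme synthesis, is known to vary in copy number among inbred strains. Its ratios were -0.47, -0.81, -0.11 and -0.53 in C3H/HeMs and -1.97, -2.16, -2.09 and -2.18 in C57BL/6J, a difference of 1.62 ± 0.14 (adjusted p = 0.0124, early 1.42) in lung and 1.99 ± 0.27 in skin. Hebp1, a heme-binding protein, lay at -0.27, -0.56, -0.39 and -0.42 against -1.31, -1.51, -1.36 and -1.73 and differed by 1.07 ± 0.12 (adjusted p = 0.0269, early 1.00). No array of one strain came within the range of the other for either gene. Cd59a, the surface inhibitor of the complement membrane attack complex, stood at -0.16, -0.16, -0.05 and 0.24 in C3H/HeMs and -1.66, -1.52, -1.65 and -1.43 in C57BL/6J. The difference of 1.53 ± 0.11 (adjusted p = 0.00813) was 1.44 over control and 1 h, and skin gave 0.58 ± 0.23. Procr, the endothelial receptor for protein C, read 1.09, 1.32, 1.08 and 0.96 against -0.26, 0.04, 0.22 and 0.04, a difference of 1.10 ± 0.14 (adjusted p = 0.0367, early 1.32). Of 22 measured complement and coagulation genes, Cd59a and Procr were called. Hc, the complement component C5 of mice, had ratios of 1.06, 1.20, 1.22 and 1.41 in C3H/HeMs, all below the 1.66, 2.25, 1.55 and 1.69 of C57BL/6J, with a difference of -0.57 ± 0.16 that did not pass (adjusted p = 0.137). The median of the list was 0.00, beside 0.01 over all features. Of 26 measured genes known to vary among inbred strains, Alad, Hebp1 and Cd59a were called higher and Trim30d lower. That list was drawn up with results of these data known, so its count is no independent evidence.

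Tnnt1, Ankrd1 and Myh6, genes of striated muscle, were higher in C3H/HeMs lung. Their differences were larger in value over 12 h and 72 h, a shift that was not called. Tnnt1, the troponin T of slow skeletal fibres, read -0.58, -0.78, 0.16 and 0.17 in C3H/HeMs against -2.51, -2.30, -2.09 and -2.19 in C57BL/6J. It differed by 2.01 ± 0.17 (adjusted p = 0.012), with 1.73 over control and 1 h and 2.30 over 12 h and 72 h. Ankrd1, a stress-induced ankyrin repeat protein of heart muscle, read -1.42, -1.27, -0.90 and -0.40 against -2.79, -2.63, -2.81 and -2.93. The strains did not overlap, and the difference of 1.79 ± 0.22 (adjusted p = 0.0363) was 1.37 early and 2.22 late. Myh6, the atrial myosin heavy chain that is the main one of adult mouse heart, read -3.18, -2.47, -2.41 and -2.21 against -3.92, -3.65, -3.91 and -3.88, a difference of 1.27 ± 0.18 (adjusted p = 0.0497, early 0.96).

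The other markers of muscle did not all follow. Of 16 measured heart genes, Myh6 and Ankrd1 were called, 6 lay apart on the higher side and 1, the cardiac actin Actc1, on the lower. Over all features 9.38% lay apart higher and 7.21% lower. Myh7, the other heart myosin heavy chain, read -2.67, -2.36, -1.49 and -1.09 against -3.33, -3.09, -3.05 and -3.19 (adjusted p = 0.0932), and Ckmt2, the mitochondrial creatine kinase of muscle, differed by 0.63 ± 0.17 (adjusted p = 0.121). The median difference of the heart list was 0.47, with 0.10 over control and 1 h and 0.83 over 12 h and 72 h, where the medians over all features were -0.02 and 0.05. The median marker of the list stood at -3.16, -2.97, -2.51 and -2.30 in C3H/HeMs and -3.34, -3.03, -3.14 and -3.16 in C57BL/6J, and all 16 genes lay below the reference on every array. Of 16 skeletal muscle genes, Tnnt1 and Car3 were called. The medians of that list ran from -2.32 to -1.94 in C3H/HeMs and from -2.74 to -2.45 in C57BL/6J, without overlap. Myh1, a fast myosin heavy chain, read -3.11, -2.49, -1.53 and -1.49 against -3.88, -3.64, -3.82 and -3.77 (adjusted p = 0.0781), whereas Acta1, skeletal actin, differed by -0.72 ± 0.14 (adjusted p = 0.0913), lower in C3H/HeMs. In bulk tissue, more cells of a type and more RNA per cell cannot be told apart, and how far muscle in the dissected tissue has a part in Tnnt1, Ankrd1 and Myh6 was not tested.

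Car3, a carbonic anhydrase abundant in fat and muscle, was higher in C3H/HeMs by 1.31 ± 0.15 (adjusted p = 0.0305, early 1.15), but its 2 probes disagreed. Probe 8010 read -2.42, -2.12, -1.35 and -0.75 in C3H/HeMs and -4.87, -4.41, -4.60 and -3.15 in C57BL/6J, a difference of 2.60. Probe 1844 lay near the reference in both strains and differed by 0.01. In skin the same probes differed by 5.78 and 0.86. Of 11 measured fat genes Car3 was the only one called, and the fat list had a median difference of 0.11.

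Several genes best known from other tissues were also higher in C3H/HeMs. Map2, a microtubule protein of neurons, read -1.19, -1.14, -0.79 and -0.79 in C3H/HeMs and -3.24, -2.85, -3.12 and -2.85 in C57BL/6J. Its difference was 2.04 ± 0.14 (adjusted p = 0.00521), 1.88 over control and 1 h and 0.48 ± 0.21 in skin. Krt79, a type II keratin of hair follicle and sebaceous duct, lay well above the reference in both strains, at 3.35, 3.68, 3.20 and 3.43 against 1.41, 1.85, 1.34 and 1.13. That was a difference of 1.98 ± 0.13 (adjusted p = 0.00521), with 1.88 over control and 1 h. Fabp1, the fatty acid binding protein of liver and gut, was far below the reference throughout, at -3.78, -3.68, -3.57 and -3.29 against -5.17, -4.83, -5.13 and -4.62, and differed by 1.36 ± 0.12 (adjusted p = 0.0124, early 1.27). The 9 liver markers were below the reference on all 8 arrays, and their median difference was -0.04. Of them, 1 lay apart higher and 1 lower, beside 9.38% and 7.21% of all features.

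Alpl, the tissue-nonspecific alkaline phosphatase carried by alveolar type II cells, read -1.38, -1.24, -1.40 and -1.19 in C3H/HeMs and -3.41, -3.29, -3.17 and -2.91 in C57BL/6J. The strains were separated by more than their spread, with a difference of 1.90 ± 0.12 (adjusted p = 0.00521) and 2.04 over control and 1 h. Slc13a4, a sodium-coupled sulfate transporter, read 1.16, 0.62, 1.50 and 1.16 against 0.05, -0.52, -0.05 and -0.29 and differed by 1.31 ± 0.13 (adjusted p = 0.018, early 1.13). Tmem252, a membrane protein, read 1.42, 2.54, 1.19 and 1.29 against -1.07, 0.70, -0.97 and -1.21. Both strains were highest at 1 h, and the difference of 2.25 ± 0.15 (adjusted p = 0.00521, early 2.17) was about the same in each pair, from 1.85 to 2.50. Rad51ap1, a DNA repair protein, read 0.18, 0.19, 1.86 and 0.52 against -1.40, -1.64, -1.24 and -1.68, with the widest gap at 12 h. Its difference was 2.18 ± 0.26 (adjusted p = 0.0313) and 1.70 over control and 1 h. Dclre1a, a nuclease for DNA crosslinks, differed by 1.29 ± 0.12 (adjusted p = 0.018, early 1.29). In a list of 30 other DNA repair and replication genes none was called, with a median of 0.05. In that list 1 gene lay apart, on the higher side, where 9.38% of all features lay apart.

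Among the 7 named genes that were lower in C3H/HeMs, 3 encode products of airway and mucosal surfaces or their cells. Tff2, a trefoil peptide secreted with mucus, read -3.37, -4.09, -3.26 and -4.75 in C3H/HeMs and -1.05, -0.72, -1.90 and -2.56 in C57BL/6J. The ranges did not overlap, and the difference of -2.31 ± 0.31 (adjusted p = 0.0468) was -2.85 over control and 1 h and -1.77 over 12 h and 72 h. Chia1, the acidic mammalian chitinase, read 1.61, 1.58, 2.19 and 1.22 against 2.99, 2.70, 3.13 and 2.06, where the C3H/HeMs 12 h array reached above the C57BL/6J 72 h array. It was lower in C3H/HeMs within each pair, with a mean difference of -1.07 ± 0.13 (adjusted p = 0.0374, early -1.25). Ly6d, a surface protein of squamous epithelium and early B cells, read -2.44, -3.18, -3.59 and -2.98 against -1.48, -1.96, -2.41 and -1.71, a difference of -1.16 ± 0.11 (adjusted p = 0.018, early -1.09). Anxa8, an annexin, was also lower in C3H/HeMs, with a difference of -1.19 ± 0.14 (adjusted p = 0.0313, early -0.98).

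None of 12 alveolar and club genes was called, and 2 lay apart, both lower, where 7.21% of all features lay apart on that side. Over control and 1 h the list had a median difference of -0.56 with 2 of 12 genes higher in C3H/HeMs, and over 12 h and 72 h a median of 0.15 with 8 of 12 higher. Scgb1a1, the club cell secretory protein, read 1.66, 1.40, 2.82 and 2.39 in C3H/HeMs and 3.08, 3.02, 2.97 and 3.29 in C57BL/6J (adjusted p = 0.118). Scgb3a1, another secretoglobin, read 0.56, 0.91, 1.89 and 1.35 against 2.00, 2.44, 2.13 and 1.75 (adjusted p = 0.138). Of 9 squamous and thyroid markers none was called and 3 lay apart, all lower, beside the same 7.21% of all features. The median of that list ran from -3.04 to -1.90 in C3H/HeMs and from -1.73 to -1.27 in C57BL/6J. The part of oesophagus or airway content in the differences of Ly6d, Tff2 and Anxa8 was not tested.

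Sox11, a transcription factor of developing neurons and progenitors, read -0.33, -0.61, -0.46 and -0.49 in C3H/HeMs and 1.42, 0.69, 1.41 and 1.05 in C57BL/6J, a difference of -1.61 ± 0.14 (adjusted p = 0.012, early -1.52) on which its 2 probes agreed at -1.70 and -1.52. Trim30d, of an interferon-induced family of near-identical genes that varies among strains, read -0.20, -0.59, -0.53 and -0.79 against 0.74, 1.06, 1.03 and 0.75 and differed by -1.42 ± 0.15 (adjusted p = 0.0261, early -1.29). Its relative Trim30a differed by -0.70 ± 0.15 without passing (adjusted p = 0.101), and signal shared between such copies makes the value of each uncertain. Rab6b, the neuronal form of a Golgi traffic GTPase, was lower in C3H/HeMs, with a difference of -0.96 ± 0.12 (adjusted p = 0.0374, early -1.10) as the mean of 3 probes that disagreed. Probes 5180 and 10432 differed by -1.64 and -1.50 in lung and by -1.63 and -1.72 in skin, whereas probe 13190 differed by 0.27 and 0.01.

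The most extreme feature without a gene of its own was probe 9419, which the annotation assigns to 2 symbols and which is therefore not named. It read 0.67, 0.64, 0.69 and 0.94 in C3H/HeMs and 2.95, 2.90, 2.90 and 2.88 in C57BL/6J, a difference of -2.17 ± 0.12 (adjusted p = 0.00521) in lung and of -2.59 ± 0.22 in skin. The other called probes without 1 symbol ran from -1.55 to 1.90.

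Immune genes differed singly. Gzma, a granzyme of cytotoxic lymphocytes, read 1.52, 1.44, 1.23 and 1.84 in C3H/HeMs against 0.46, 0.54, -0.32 and 0.52 in C57BL/6J, without overlap, and differed by 1.21 ± 0.14 (adjusted p = 0.0326, early 0.98). It was the only one called of 21 T and NK cell genes, of which 6 lay apart, all higher. Over all features 9.38% lay apart on that side. Klrd1, an NK receptor chain, differed by 0.70 ± 0.12, and Ccl5, a T cell chemokine, by 0.80 ± 0.13, each with an adjusted p of 0.0684. The median of the list was 0.19 and its array medians overlapped between strains, from -0.26 to 0.06 in C3H/HeMs and from -0.65 to -0.16 in C57BL/6J. Il18, a cytokine of the interleukin-1 family that stimulates NK and T cells, read 0.96, 1.13, 1.16 and 1.13 against 0.04, 0.04, -0.18 and 0.20. Its difference was 1.07 ± 0.12 (adjusted p = 0.0313, early 1.01). Of 32 cytokines and chemokines it was the only one called, beside 0.731% of all features. Lst1, a leukocyte protein, differed by 0.96 ± 0.11, and Tbxas1, the thromboxane synthase of platelets and macrophages, by 0.90 ± 0.11.

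Among myeloid markers no call was made, and the members split. Of 16 macrophage and monocyte genes, 4 lay apart higher and 1 lower, with a median difference of 0.07. Of 10 neutrophil genes, 2 lay apart higher and 1 lower, with a median of -0.25. Over all features 9.38% lay apart higher and 7.21% lower. Chil3, a chitinase-like protein of alveolar macrophages, read 1.58, 1.62, 3.03 and 1.46 in C3H/HeMs and 3.82, 3.33, 3.85 and 2.77 in C57BL/6J, and its difference of -1.52 ± 0.24 came near the threshold (adjusted p = 0.0596). Ltf, lactoferrin of neutrophil granules and airway glands, differed by -1.78 ± 0.27 (adjusted p = 0.0577). Other granule genes lay on the opposite side, Camp at 0.92 ± 0.25 and Ngp at 0.74 ± 0.22. Outside the myeloid lists, Jchain, which joins secreted antibody chains in plasma cells, differed by 1.41 ± 0.23 (adjusted p = 0.0684). The B cell and plasma cell list did not follow it. Of its 19 measured genes none was called, 2 lay apart higher and 2 lower, and the median difference was -0.20. Its array medians ran from -0.44 to -0.33 in C3H/HeMs and from -0.31 to -0.07 in C57BL/6J. None of 10 MHC class II genes and none of 23 interferon-induced genes was called, with medians of 0.05 and 0.01. With 0.731% of all features called, the lack of a call in lists of this size says little about these genes.

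The 22 called genes beyond the 22 named by rule, 17 higher and 5 lower, ran from 0.85 to 1.30 and from -1.19 to -0.76. Matrix and matricellular genes among them were Vcan, the proteoglycan versican, at 1.08 ± 0.13 in lung and 1.19 ± 0.21 in skin, and Ccn4, a secreted CCN protein, at 1.06 ± 0.14. Of the 23 measured genes of the fibrillar matrix and matricellular list, which does not hold Ccn4, Vcan was the only one called, and the median was 0.16. Over all features 0.731% were called. Trafficking genes were Ap1s3, a small subunit of a clathrin adaptor, at 1.30 ± 0.13, Sorl1, a sorting receptor, at 0.95 ± 0.11, and Rabgap1l at -0.85 ± 0.12. Rcan2, a regulator of calcineurin, read 0.13, -0.22, -0.25 and 0.01 against -1.32, -1.61, -1.25 and -0.97, and its difference of 1.20 ± 0.14 was 1.42 over control and 1 h, where it also passed (adjusted p = 0.046). Pttg1, the securin that holds sister chromatids together, was very even within strains, at -1.04, -0.83, -0.99 and -0.97 in C3H/HeMs and -0.12, -0.08, -0.03 and -0.05 in C57BL/6J. It was the only one called of 28 mitosis genes, beside the same 0.731% of all features. Further up were Unc5b, a netrin receptor, the palmitoyltransferase Zdhhc2, the mitochondrial GTPase Mtg2 and the zinc finger gene Zfp979, and further down the poly(A) polymerase Tent5c and the transcript Junos, between -0.88 and 1.20.

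Of the 39 lists, 29 had no called member, where 0.731% of all features were called. At that share a list of such a size need not hold a called gene, so the lack of one says little about the list. Respiratory chain genes, 32 of them measured, changed side with time without a call: their median difference was -0.16 over control and 1 h and 0.58 over 12 h and 72 h. Gclc, which limits glutathione synthesis, and Sod1, a superoxide dismutase, were lower in C3H/HeMs on every array but did not pass, at -1.11 ± 0.21 (adjusted p = 0.0868) and -0.88 ± 0.15 (adjusted p = 0.07). Cst3, the protease inhibitor cystatin C, differed by 1.02 ± 0.25, with 0.47 early and 1.58 late (adjusted p = 0.116).

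**Figure D3:**
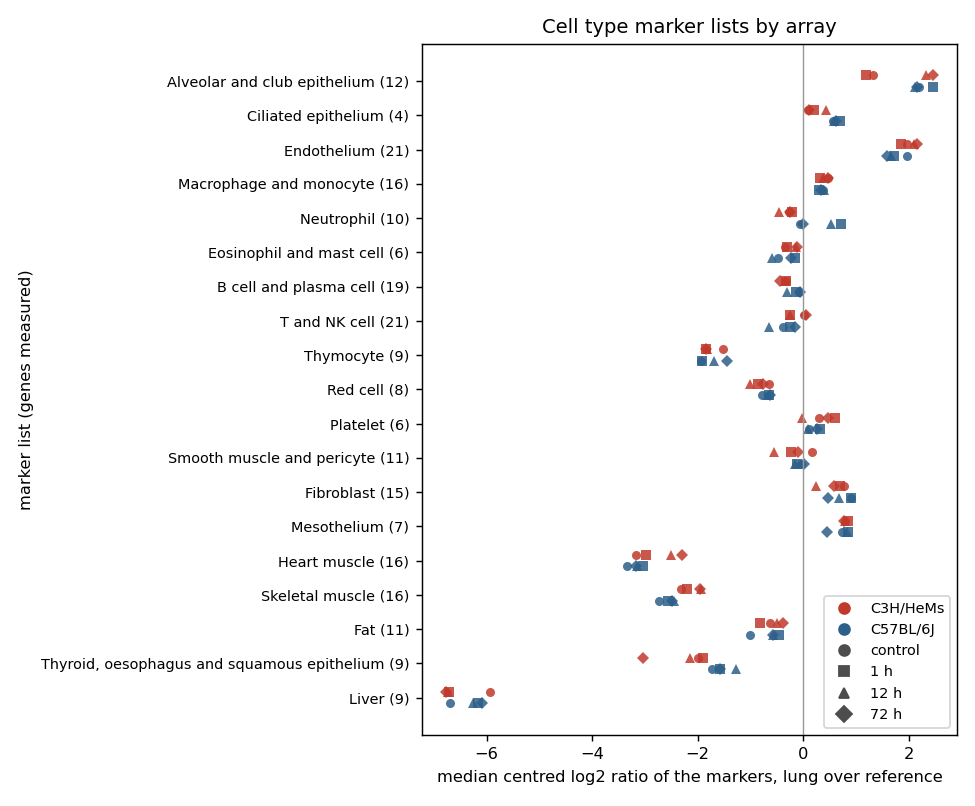
Median centred log2 ratio of each cell type marker list on each of the 8 lung arrays, C3H/HeMs in red and C57BL/6J in blue, with the number of measured genes in brackets and the marker shape giving the time. Lung epithelium and endothelium lie above the reference and liver, heart muscle and skeletal muscle below it. Skeletal muscle is the one list with a median higher on all 4 C3H/HeMs arrays than on any of C57BL/6J. The medians of the ciliated, neutrophil, B cell and squamous lists are lower on all 4 than on any C57BL/6J array. Gene by gene, the median early difference was -0.36 for the ciliated and -0.27 for the squamous list, but 0.08 for the neutrophil and 0.01 for the B cell list.

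Skin, measured in both strains after 30 Gy to the hind leg and without irradiation, gave the same comparison in other pools. There 3 features passed (0.0343%), Car3, Cap1 and probe 9419, and all 3 were among the 64 of lung. Of the 64, 47 differed in the same direction in skin, 23 of them at an unadjusted p under 0.05, against 5 with the opposite direction at that level. Over all features, 1090 of 8750 (12.5%) had an unadjusted p under 0.05 in skin, in either direction. How many of all features differed in the same direction in lung and skin was not counted, so the 47 have no such share beside them. Skin arrays of the strains lay fully apart in the same direction for 17 of the 64 (26.6%) and in the opposite direction for 3. Over all features, the 4 C3H/HeMs skin arrays lay above those of C57BL/6J for 2.45% and below them for 3.5%.

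**Figure D4:**
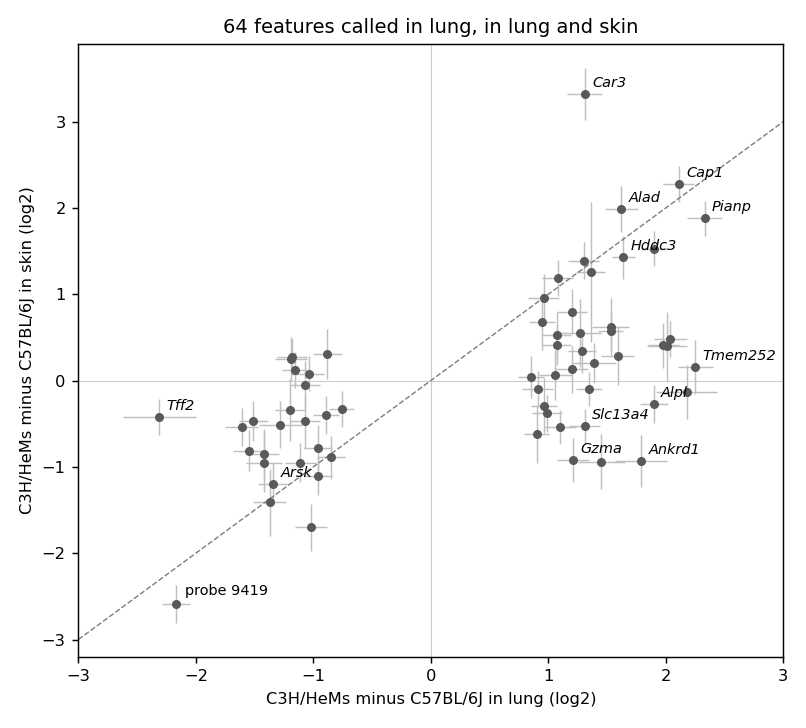
Strain difference in lung against that in skin for the 64 features called in lung, with bars of 1 SE and a dashed line of equal differences. Cap1, Pianp, Alad, Hddc3, Arsk and probe 9419 lie near the line, Car3 is larger in skin (3.32 against 1.31), and Ankrd1, Gzma, Slc13a4 and Alpl lie below 0 in skin.

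A test of the difference between tissues, added after the data were seen, found 8 features (0.0914%) whose strain difference was not the same in lung and skin. Of these, 6 were among the 64: Alpl, Ankrd1, Gzma, Procr, Slc13a4 and probe 8752, all higher in C3H/HeMs lung and at or below 0 in skin. For Alpl the skin ratios were -2.57, -2.31, -2.39 and -2.40 in C3H/HeMs and -2.08, -2.50, -2.04 and -1.97 in C57BL/6J, and the lung difference exceeded that of skin by 2.16 ± 0.23 (SE, adjusted p = 0.0243). The corresponding gaps were 2.73 ± 0.40 for Ankrd1, 2.13 ± 0.29 for Gzma, 1.84 ± 0.21 for Slc13a4, 1.64 ± 0.21 for Procr and 1.45 ± 0.21 for probe 8752. The other 2, Lgals4, a galectin of gut epithelium, and Trp73, a p53 family transcription factor, were higher in C3H/HeMs skin by 2.13 ± 0.33 and 1.34 ± 0.22 and lower in C3H/HeMs lung by 0.65 and 0.44, neither called there. Over the control and 1 h arrays of both tissues alone, limma called 0 features, with 1114 at an unadjusted p under 0.05.

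**Figure D5:**
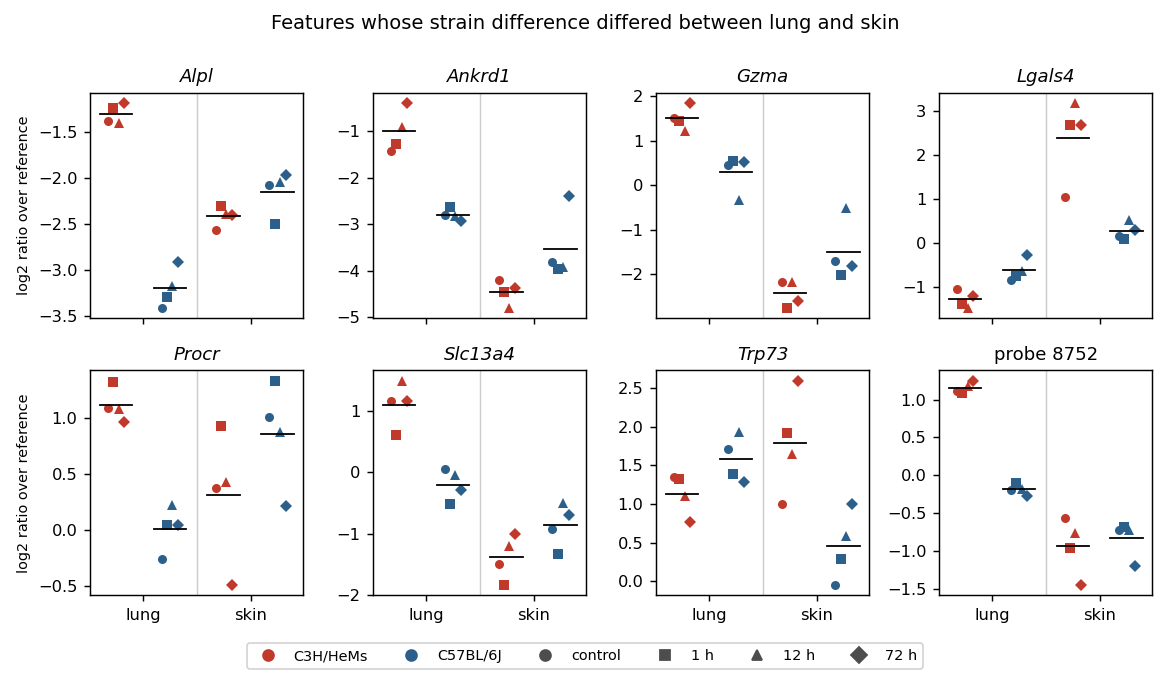
Log2 ratio over the reference in lung and skin for the 8 features whose strain difference differed between the tissues, 1 point per array, black lines at the means of 4 arrays, C3H/HeMs in red and C57BL/6J in blue. In 6 panels red lies above blue in lung and at or below it in skin; Lgals4 and Trp73 show the reverse.

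The lung of A/J, the other strain of the series, has no part in the tests above. For 38 of the 64 features the range of its 4 arrays overlapped that of C3H/HeMs alone, for 6 that of C57BL/6J alone, for 11 both and for 9 neither. Over control and 1 h the A/J mean was nearer to C3H/HeMs for 44 and nearer to C57BL/6J for 20. Such counts were not made over all features, so whether the 64 are unusual in this is not known. Pianp at -0.45, -0.25, -0.26 and -0.15, Cap1 at 0.08, -0.03, 0.16 and 0.25 and Map2 at -1.28, -1.17, -1.22 and -0.86 in A/J were at the C3H/HeMs level, leaving C57BL/6J as the low strain. Gzma at 0.08, -0.14, -0.78 and -0.63 and Dclre1a at -0.30, 0.00, 0.25 and 0.23 overlapped C57BL/6J, and Cd59a at -1.31, -0.96, -1.03 and -0.90 lay between the strains. Tnnt1 in A/J read -2.33, -2.40, 1.21 and -2.16, at the C57BL/6J level on 3 arrays and above both strains at 12 h. A/J shares no array with either strain, but its 12 h and 72 h arrays held 674 and 607 ratios of exactly 0.

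By place in the genome, all 44 called genes were found in the RefSeq gene table among 5854 measured genes, and 3 pairs lay within 10 measured genes of each other. How many such pairs 44 genes drawn at random would give was not computed, so the count does not show clustering. Pianp and Rad51ap1 were 6 measured genes apart and both higher in C3H/HeMs. Slc13a4 and Tbxas1, also 6 apart, were both higher as well, whereas Ccn4 and Ly6d, 9 apart, went opposite ways.

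No feature passed in the test of late against early differences (smallest adjusted p 0.0691), in which limma found 1929 features at an unadjusted p under 0.05. The smallest p belonged to Wdr75, a protein of ribosomal RNA processing, which read -0.38, -0.53, -4.76 and -5.19 in C3H/HeMs and -3.64, -3.54, -3.83 and -3.80 in C57BL/6J, so that control and 1 h lay far above the strain's own later arrays. Ly6e, a surface protein of the Ly6 family, read -0.35, -0.31, 1.67 and 1.57 against 0.69, 0.69, 0.48 and 0.56, and Cdca3, a cell division gene, -3.52, -3.44, -1.46 and -1.31 against -2.96, -2.68, -3.11 and -2.81. Sephs2 and Nubp1 followed, also higher in the C3H/HeMs arrays of 12 h and 72 h than in those of control and 1 h. A similar step was seen in A/J lung for 3 of these genes. There Ly6e read -0.35, -0.27, 1.38 and 1.15, Nubp1 -0.35, -0.12, 1.47 and 1.07, and Sephs2 -2.06, -2.41, -0.43 and -0.94. Cdca3 (-1.54, -1.80, -1.13 and -1.43) and Wdr75 (-3.48, -3.82, -4.45 and -4.70) moved less in A/J than in C3H/HeMs. Time and the set of arrays that stood apart cannot be told apart here.

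The strains' responses to irradiation, the mean of 1 h, 12 h and 72 h minus control, differed for 1 feature. Probe 11792, without a gene symbol, read 6.59, 0.33, 0.62 and 0.57 in C3H/HeMs and 0.20, 0.16, 0.02 and 0.26 in C57BL/6J, and its C3H/HeMs control value was at the limit of the deposited scale, and the response differed by -6.04 ± 0.28 (adjusted p = 0.00113), a value that rests on that array. Without any 1 of the irradiated pairs it no longer passed. Of the genes, Sh3bp2, an adaptor protein of immune cells, had the smallest p and read -5.42, -0.81, 0.08 and -0.06 against -0.58, -0.62, -0.33 and -0.76, again resting on the C3H/HeMs control (adjusted p = 0.0911). Slc2a5, Rph3a, Itsn1 and Aqp2 came next, with response differences of -2.08, -1.56, -1.20 and -1.92 and an adjusted p of 0.95 each. The 14 measured p53 targets had median changes from control of 0.30, 0.69 and 0.54 at 1 h, 12 h and 72 h in C3H/HeMs and of 0.19, 0.77 and 0.49 in C57BL/6J, with 1 array per time and no call among them for the strain difference.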

How the data were processed

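The authors deposited log10 ratios (Cy5 over Cy3) for 9275 probes of a mouse cDNA array, from Agilent Feature Extraction per the submitters' processing notes. Its version, background and dye steps and any spot filter are not given in the sources used here. Ratios were limited to ±2 and none was missing, and since spot intensities were not used here, background and depth per spot are unknown and precision is limited by how many arrays there are. Per the labels, the dye was Cy3 for lung and Cy5 for skin, so lung ratios were turned in sign. All were multiplied by 3.32 to log2 and centred on each array's median.

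Gene symbols came from the platform annotation of 2007 (6433 with 1 symbol, 381 with several, 2461 with none). Averaging the probes of each gene left 8750 features, including 5908 with a name.

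limma 3.58.1 in R 4.3.3 fitted strain with time as a block to the 8 lung arrays (3 residual degrees of freedom). Variances were moderated with eBayes, p-values were adjusted by Benjamini-Hochberg over the whole array, and 0.05 was the threshold. Further fits separated early from late pairs, tested the interaction of strain and irradiation, repeated the comparison in the 8 skin arrays and, as an addition after seeing the data, tested lung against skin in 16 arrays. The fits were tested on simulated data. Time pairs the arrays by label. Deviations from the strain means correlated between strains at -0.0144, 0.0325, 0.0465 and 0.149 at control, 1 h, 12 h and 72 h.

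Named genes had 1 symbol, passed, had the same sign in 4 pairs and differed at least 2-fold over control and 1 h. The 15 largest of 22 higher and all 7 lower are given. Lists gave up to 4 members of smallest p, and the late against early and irradiation tests the 5 smallest. Other called genes, called probes, the 8 features of the tissue test, Actc1, Trim30a and A/J values were named after their values were seen. The comparison and the lists were chosen with earlier results of these data known. Alternatives were the block, the arrays used, scaling, exact zeros, the limit, low ratios, single probes and robust moderation.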

Additional observations from a re-analysis of the deposited data

Results flagged for a closer look

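Among 22 named genes, each with 4 arrays per strain, an array far from the other 3 of its strain was found in 2 of 44 groups, which is about what chance gives (1 in 20). The C57BL/6J lung array of 1 h read 0.70 for Tmem252, where the others lay from -1.21 to -0.97, and C3H/HeMs was also highest at 1 h. For Hddc3 the C57BL/6J array of 72 h read -1.73, against -2.01 to -1.97 on the others.

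The strain difference was not the same in lung and skin for 8 features, by the limma test of that difference. The lung minus skin value was 2.16 for Alpl (adjusted p = 0.0243), 2.73 for Ankrd1 (0.0475), 1.84 for Slc13a4 (0.0261), and 2.13 for Gzma, 1.64 for Procr, 1.45 for probe 8752, -2.78 for Lgals4 and -1.78 for Trp73 (0.0467 each).

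The irradiation response of probe 11792 differed between the strains by -6.04 (adjusted p = 0.00113), with the C3H/HeMs control array at 6.59 and the other 7 lung arrays between 0.02 and 0.62.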

How the results depend on the processing

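The 64 calls of the lung comparison became 307 with no replicate block (time dropped), 159 with all 12 lung arrays (55 shared with the 64), 34 among features with a mean ratio of at least 0.5 in size, 0 over the control and 1 h arrays only and 4 there without the block. Without 1 pair they ran from 3 to 17, and without the block and 1 array from 61 to 449 (224 without the C3H/HeMs control and 133 without its 12 h array). They were 46 with no centring, 69 with quantile normalization, 63 with median and MAD scaling, 70 with exact zeros missing, 64 with limit values missing, 81 by single probe and 65 with robust moderation. The median strain difference over all features was 0.01, and 0.05 with no centring, 0.04 with quantile normalization and -0.01 with MAD scaling. The count of 21 for control and 1 h became 0 with those arrays only (1182 at an unadjusted p under 0.05), 3 with no centring and 9 with quantile normalization. For late against early the 0 became 2 with quantile normalization and 3 with MAD scaling. The response call fell to 0 without any 1 irradiated pair (170 to 1150 at an unadjusted p under 0.05), skin to 0 without any 1 pair (592 to 1295), and lung minus skin to 0 over control and 1 h (1114). In skin the count without the block was also 3. The response without the 12 h and 72 h arrays of both strains leaves no test and was not run.

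Named genes passed in 373 of 554 alternative fits, lost the call in 180 and reversed in 1: Rab6b by probe 13190 alone, at 0.27. With no replicate block 20 of the 22 passed, over control and 1 h in the fit of 8 arrays 8 passed, and without the 72 h pair 2. Causes of these shifts were not tested.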

Other observations

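Some lists held no or few differences. Of 16 clock and glucocorticoid-induced genes and 16 immediate early genes, none was called and none had strain ranges apart, with medians of 0.00 each, beside 9.38% and 7.21% of all features apart. Of 14 p53 targets, 1 lay apart and none was called (median 0.06), and of 40 genes of xenobiotic and steroid metabolism 2 lay apart, both lower. A p that misses the threshold does not show that these levels were equal.

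Just outside the threshold lay Pik3ap1, an adaptor of B cell signalling, at 1.45 ± 0.20 (SE, adjusted p = 0.0506), the fibrinogen chain Fgg at -0.76 ± 0.11 (0.0517) and Sirpb1a, a signal regulatory protein, at -0.84 ± 0.12 (0.0517). Just inside lay Ccn4 at 1.06 ± 0.14 (0.0489), Tent5c at -0.76 ± 0.11 (0.0497) and Myh6 at 1.27 ± 0.18 (0.0497).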
